A study of Mus musculus with 13 samples.

Results

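In the Hepa 1.6 mouse hepatoma cell line, 7519 of the 66242 deposited H3K9me3 regions were 1000 bp or more and under 4000 bp wide and overlapped no KAP1 peak. These KAP1-free regions were selected on their called width and on the absence of a called KAP1 peak, so neither of these is a finding. They are set against the 2046 H3K9me3 regions of the same width that did overlap a KAP1 peak, here called KAP1 regions. H3K9me3, H3K4me1, H3K27ac and KAP1 were mapped by ChIP-seq in cells grown under standard conditions. RNA polymerases II and III (PolII and PolIII) were mapped in 2 conditions: control cells (labelled as given a control shRNA, although the study's methods name an empty vector) and Kap1 KD cells, carrying an shRNA against Kap1, fixed 5 days after transduction. All of these cells are of the same tumour line, and each antibody and condition had 1 library with a list of called positions, so no replicate error exists and every interval and p-value below covers counting over regions only. Neighbouring regions are not independent of each other, and read depth is not given by the lists.

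H3K9me3 is the histone mark of constitutively silent chromatin and is bound by HP1 proteins. KAP1 (also called TRIM28) is a cofactor that KRAB zinc finger proteins bring to DNA, where it recruits the H3K9 methyltransferase SETDB1. Other enzymes, such as SUV39H1 and SUV39H2, write the same mark without it. H3K4me1 marks enhancers, active or poised, and H3K27ac marks active enhancers and promoters. Loss of these silencing factors is best known for releasing transposable elements, and KRAB zinc finger gene clusters themselves carry H3K9me3.

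The central bases of 4 KAP1-free regions and 2 KAP1 regions are printed to show the kinds of DNA in both sets, with each CG dinucleotide in capitals. Each KAP1-free region is the one closest to the median width of its class, and the KAP1 regions are the pair with the highest-scoring peaks. All are on the plus strand of mm9.
Intergenic, chr1:12459807-12459926: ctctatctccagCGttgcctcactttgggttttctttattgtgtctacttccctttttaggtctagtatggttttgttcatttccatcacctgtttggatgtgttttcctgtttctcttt
Intron of Dok5, chr2:170570424-170570543: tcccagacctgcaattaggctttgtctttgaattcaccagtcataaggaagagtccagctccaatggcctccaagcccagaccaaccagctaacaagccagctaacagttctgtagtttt
Centre within 1 kb of a start site, at H60b, chr10:21993082-21993201: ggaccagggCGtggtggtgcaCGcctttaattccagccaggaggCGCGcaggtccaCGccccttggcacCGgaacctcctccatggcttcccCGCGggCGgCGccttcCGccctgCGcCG
With H3K4me1, chr13:66358789-66358908: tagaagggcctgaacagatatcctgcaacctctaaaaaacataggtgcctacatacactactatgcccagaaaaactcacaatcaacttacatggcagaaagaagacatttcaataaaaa
KAP1 region at Msc, chr1:14745305-14745424: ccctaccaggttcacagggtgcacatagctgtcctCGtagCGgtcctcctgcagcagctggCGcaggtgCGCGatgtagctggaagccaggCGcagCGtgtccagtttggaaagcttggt
KAP1 region at Spata3, chr1:87915702-87915821: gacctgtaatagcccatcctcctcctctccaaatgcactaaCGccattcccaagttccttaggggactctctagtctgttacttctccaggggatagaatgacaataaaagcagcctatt

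The whole intergenic region (1483 bp) held 9 CG dinucleotides and the whole H3K4me1 region (1742 bp) held 4. The region at H60b, which encodes a ligand of the NKG2D receptor, held 57 in 1411 bp. The KAP1 region over Msc, a basic helix-loop-helix factor gene, held 81 in 1379 bp. The Dok5 intron region held 28 in 1505 bp and the KAP1 region at Spata3 82 in 3028 bp. These 6 do not stand for all regions of their classes. In the intergenic one 50.7% of the sampled 24-base runs had 100 or more genome copies, a kind that made up 2.86% of KAP1-free regions.

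KAP1-free regions were poorer in CG dinucleotides than KAP1 regions. The ratio of observed to expected CG had a median of 0.18 in KAP1-free regions, with quartiles of 0.12 and 0.27. In KAP1 regions the median was 0.29, with quartiles of 0.19 and 0.43. The GC content had medians of 45.3% and 47.0%, and the quartile ranges of the 2 sets overlapped (42.1% to 48.4% and 44.0% to 50.9%). Over all H3K9me3 regions, most of them narrower, the median CG ratio was 0.204, with quartiles of 0.095 and 0.359. Their median GC content was 46.5%. By these medians the KAP1-free regions were closer to the whole H3K9me3 list than the KAP1 regions were in CG ratio. The H3K27ac regions of the same width, for reference, had a median CG ratio of 0.20 and a median GC content of 42.3%. These are descriptions of the sequence under the regions and were given no test.

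The KAP1-free regions were made of 2 kinds of sequence that differed in how often it recurs in the genome. Runs of 24 bases were taken every 20 bp from each region and counted over both strands of the genome. In 3571 KAP1-free regions (47.5%, 95% Wilson interval 46.4% to 48.6%) over 50% of the runs occurred once, here called single-copy regions. In 3236 (43.0%, 41.9% to 44.2%) over 50% of the runs had 2 to 99 copies, here called low-copy regions. A further 215 regions consisted mostly of runs with 100 copies or more, and 497 belonged to no class. Of the KAP1 regions, 1279 (62.5%) were single-copy and 506 (24.7%) were low-copy. Over all H3K9me3 regions, most of them narrower, 32.2% were single-copy and 33.4% low-copy. In the H3K27ac regions of the same width, the median share of runs occurring once was 95.9%, against 41.1% in KAP1-free regions, 70.0% in KAP1 regions and 10.7% over all H3K9me3 regions.

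Copies on the region's own chromosome were more frequent in KAP1-free than in KAP1 regions. In 2482 of the 3236 low-copy KAP1-free regions (76.7%), over 50% of the runs were of low copy number with most of their copies on the region's own chromosome. This held for 178 of the 506 low-copy KAP1 regions (35.2%) and for 14580 of the 22103 low-copy regions of the whole H3K9me3 list (66.0%). Over all regions of both sets the shares were 33.0% (32.0% to 34.1%) and 8.70% (7.55% to 10.0%), and 22.0% in the whole H3K9me3 list. Stratified by chromosome, the odds of such duplication were 6.64 times as high in KAP1-free as in KAP1 regions (95% interval 5.49 to 8.03, Mantel-Haenszel). This comparison was added after the sequences had been counted, and the distance between copies was not measured.

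The same-chromosome copies can be read directly on chromosomes 4 and X, which had the most low-copy KAP1-free regions (482 and 421). Below, a run of 24 bases for each chromosome stands in capitals with 38 bases on either side. It is the run found in the most of the low-copy KAP1-free regions that met the same-chromosome criterion above. Only runs with all genome copies on that chromosome and under 100 copies were considered. On chromosome 4 this run was in 15 of 383 regions and had 37 genome copies, and on chromosome X it was in 23 of 364 regions and had 78 copies, being the alphabetically earliest of 4 such runs.
Chromosome 4 in Gm13242, chr4:145260874-145260973: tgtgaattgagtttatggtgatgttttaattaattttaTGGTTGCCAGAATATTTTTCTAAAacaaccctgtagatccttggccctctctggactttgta
Chromosome 4, chr4:145961239-145961338: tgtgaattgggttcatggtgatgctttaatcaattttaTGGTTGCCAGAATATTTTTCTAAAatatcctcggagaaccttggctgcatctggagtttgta
Chromosome 4, chr4:146684928-146685027: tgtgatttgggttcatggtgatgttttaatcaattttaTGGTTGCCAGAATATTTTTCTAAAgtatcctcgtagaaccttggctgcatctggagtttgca
Chromosome X, chrX:144330185-144330284: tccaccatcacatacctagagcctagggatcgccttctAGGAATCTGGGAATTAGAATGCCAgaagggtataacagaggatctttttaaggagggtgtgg
Chromosome X in Gm15127, chrX:145103318-145103417: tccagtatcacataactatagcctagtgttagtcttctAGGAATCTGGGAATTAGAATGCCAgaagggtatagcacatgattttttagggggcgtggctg
Chromosome X, chrX:146360422-146360521: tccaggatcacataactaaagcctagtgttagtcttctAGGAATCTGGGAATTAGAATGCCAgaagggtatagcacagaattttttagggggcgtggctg

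Against the first of its chromosome, position by position, the later chromosome 4 stretches matched at 85 and 84 of 100 bases, and both later chromosome X stretches at 79 of 100. The 3 printed chromosome 4 stretches lay within 1.42 Mb of each other, in windows that hold zinc finger genes such as Zfp600. Of the 3, the copy in Gm13242, whose current RefSeq symbol is Zfp980, lay in a region overlapping H3K4me1, and the copy at chr4:145961239-145961338 in a region overlapping PolII in Kap1 KD cells. How the authors' alignment treated reads that match several places is not given in the sources used here, and its part in the shares of low-copy regions was not tested.

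KAP1-free regions were unevenly spread over the chromosomes. Chromosome 15 had 1399 of them, or 13.5 per Mb, followed by chromosome 5 with 7.20, chromosome 7 with 4.56 and chromosome 4 with 4.24 per Mb. At the low end were chromosome 14 with 0.76 per Mb, chromosome 16 with 27 regions and chromosome 9 with 11. Chromosomes 4, 5, 7 and 15 together held 51.2% of the KAP1-free regions, 32.1% of the KAP1 regions and 21.4% of the genome. Every chromosome had more KAP1-free than KAP1 regions, and the density of KAP1 regions ran from 0.0719 per Mb on chromosome 14 to 2.15 on chromosome 15. All H3K9me3 regions together were likewise densest on chromosome 15, at 68.7 per Mb. They followed with 37.9 on chromosome 5 and 32.2 to 33.9 on chromosomes 4, 6, 7 and X. The fewest per Mb were on chromosomes 9 (6.58) and 16 (8.95). H3K4me1 regions were also densest on chromosome 15, at 90.7 per Mb against 7.64 to 46.2 on the others. H3K27ac regions stood there at 38.5 per Mb against 11.5 to 31.8, and control PolII regions at 4.77 against 4.76 on chromosome 11. Whether copy number in this tumour line moves with these densities was not tested.

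**Figure D1:**
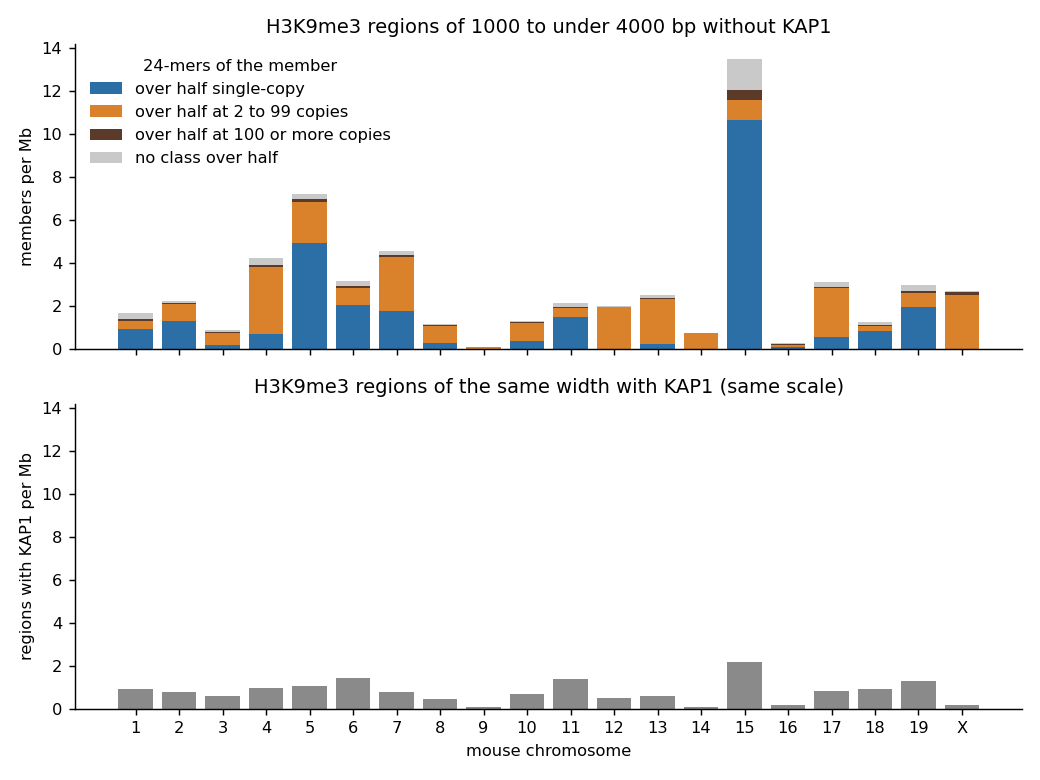
Regions per Mb of each mouse chromosome for KAP1-free H3K9me3 regions (top, bars split by the copy class of over 50% of their 24-base runs) and for KAP1 regions of the same width (bottom, same scale). Chromosome 15 stood highest at 13.5 per Mb and was mostly single-copy, whereas chromosomes 4, 12, 13 and X were mostly low-copy.

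The mix of the 2 kinds of sequence differed between chromosomes. Of the 1399 KAP1-free regions of chromosome 15, 1103 were single-copy and 94 low-copy, and on chromosome 5 the counts were 756 and 290. On chromosome X, 421 of 452 were low-copy and 2 single-copy. Chromosome 12 had 233 low-copy regions of 241, chromosome 13 had 252 of 303, and chromosome 4 had 482 of 660. Other chromosomes held both kinds in number, with 268 single-copy and 387 low-copy regions on chromosome 7, 239 and 140 on chromosome 2, 306 and 118 on chromosome 6, and 184 and 78 on chromosome 1. In all, 991 of the 2649 windows of 1 Mb held a KAP1-free region (37.4%), with a median of 2 where there was any. The 132 fullest windows, 5% of all, held 63.3% of the regions.

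The 5 fullest windows showed both kinds. The fullest, chr5:150000001-151000000, had 146 KAP1-free regions, 99.3% of them single-copy, with 2 KAP1 regions and 7 KAP1 peaks of any width. It holds Alox5ap, the 5-lipoxygenase activating protein, the glycosyltransferase gene B3galtl and the start of Fry. Both windows of chr4:145000001-147000000, with 123 and 130 regions of which 90.2% and 90.8% were low-copy, hold a cluster of zinc finger genes that includes Rex2 and Zfp600. In chr13:66000001-67000000, 115 regions were 96.5% low-copy and lay among Zfp640 and vomeronasal receptor pseudogenes. In chr5:142000001-143000000, all 107 regions were single-copy and most lay in Sdk1. Below these 5, chr4:60000001-61000000 held 82 regions among 12 Mup genes, which encode the major urinary proteins secreted by liver.

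Over all chromosomes, KAP1-free regions often had another H3K9me3 region nearby. The gap to the nearest other H3K9me3 region had a median of 618 bp for KAP1-free regions and 962.5 bp for KAP1 regions, and 63.4% and 50.6% respectively had one within 1 kb. When H3K9me3 regions separated by less than 1 kb were merged, 2754 KAP1-free regions (36.6%) stayed alone, 3226 (42.9%) became pieces of a merged region of 4000 bp or more, and 618 (8.22%) joined a merged region that did hold KAP1. The nearest KAP1 peak was a median of 51.9 kb away, with quartiles of 15.9 and 139 kb, and 11.3% had a peak within 5 kb.

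**Figure D2:**
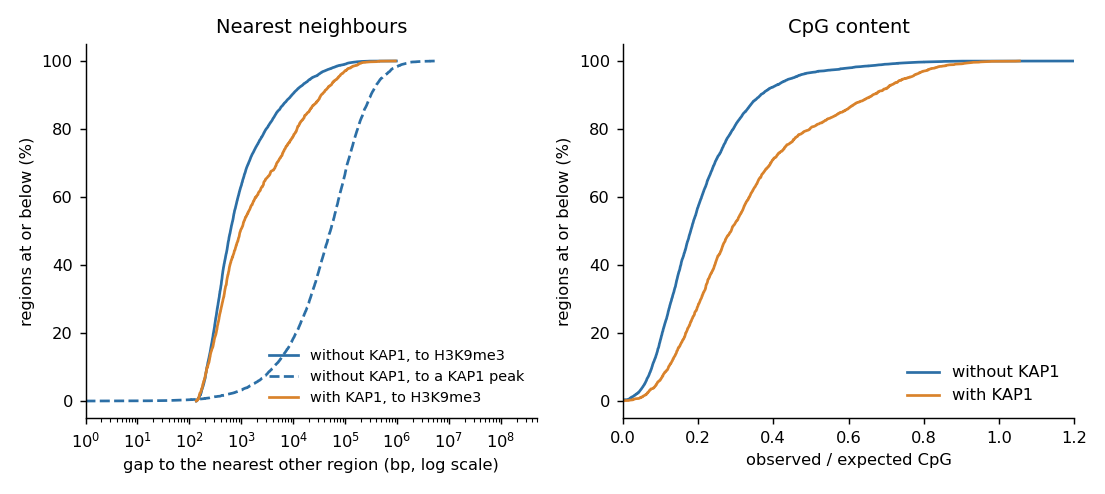
Cumulative shares of regions by the gap to the nearest other H3K9me3 region or KAP1 peak in bp on a log scale (left), and by the ratio of observed to expected CG dinucleotides (right). Blue lines are KAP1-free regions and orange lines KAP1 regions of the same width. The KAP1-free median is the lower for the gap to H3K9me3 (618 against 962.5 bp) and for the CG ratio (0.18 against 0.29). The dashed blue line is the gap to the nearest KAP1 peak, with a median of 51.9 kb.

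Both selection limits cut through a continuum. There were 601 KAP1-free regions of 950 to 999 bp and 568 of 1000 to 1049 bp, of which 11.5% and 9.33% overlapped H3K4me1. At the upper limit, 220 were 3500 to 3999 bp wide and 126 were 4000 to 4499 bp wide, with shares of 37.3% and 35.7%. On the KAP1 side, 32 KAP1-free regions had a peak within 100 bp, the nearest at 1 bp, and 33 KAP1 regions shared under 100 bp with their peak, the least being 3 bp. The median width was 1491 bp for KAP1-free regions and 1651.5 bp for KAP1 regions.

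KAP1-free regions overlapped H3K4me1 more often than KAP1 regions did. The overlap was 1328 of 7519 regions (17.7%, 95% Wilson interval 16.8% to 18.5%) against 187 of 2046 (9.14%, 7.97% to 10.5%), and 9.58% over all H3K9me3 regions. The odds ratio was 2.13 (1.81 to 2.51, adjusted p = 3.81e-22, two-sided Fisher's exact test with Benjamini-Hochberg adjustment over 9 comparisons). It was 1.72 (1.46 to 2.03) within chromosomes and 1.44 (1.21 to 1.71) within chromosomes and copy classes together. Where they met, H3K4me1 covered a median of 39.7% of a KAP1-free region and 24.6% of a KAP1 region. Requiring that at least 0.5 of the region be covered gave an odds ratio of 4.34. Merging H3K9me3 regions less than 1 kb apart gave 1.43 (1.22 to 1.68).

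**Figure D3:**
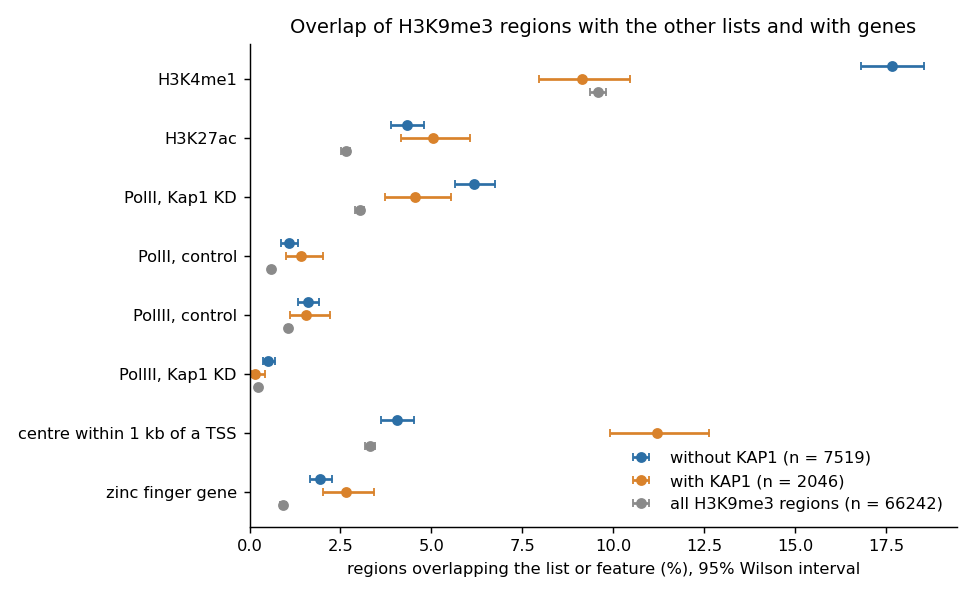
Share of H3K9me3 regions (percent, with 95% Wilson intervals) that overlapped each other list, had their centre within 1 kb of a protein-coding transcription start site (TSS), or overlapped a zinc finger gene. H3K4me1 was at 17.7% in KAP1-free regions (blue) and 9.14% in KAP1 regions (orange), and the TSS share at 4.04% and 11.2%; grey points are all H3K9me3 regions.

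The H3K4me1 share was higher in the widest than in the narrowest 500-bp bin in both sets, but rose at every step only in KAP1-free regions. It went from 13.1% (498 of 3798) at 1000 to 1499 bp to 37.3% (82 of 220) at 3500 to 3999 bp in KAP1-free regions, and from 7.54% (61 of 809) to 16.4% (12 of 73) in KAP1 regions. A wider region has more bases in which to meet another, and stratified by width in 500-bp steps the odds ratio was 2.31. The difference was not the same on every chromosome. The KAP1-free share was the higher on 14 of 20 chromosomes and the lower on 6. It was 47.8% against 9.38% on chromosome X (216 of 452 and 3 of 32), 30.2% against 24.7% on chromosome 15 (423 of 1399 and 55 of 223), and 13.0% against 17.4% on chromosome 5 (143 of 1098 and 28 of 161).

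**Figure D4:**
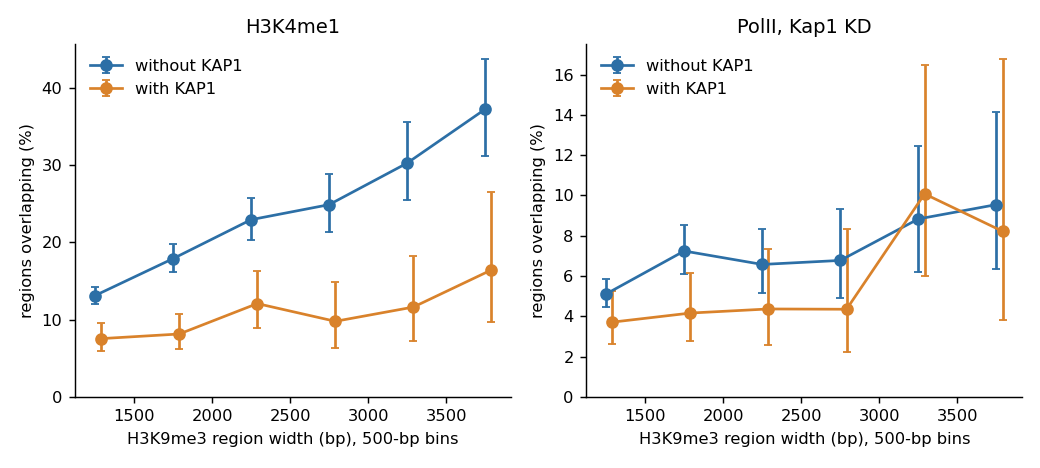
Share of H3K9me3 regions overlapping H3K4me1 (left) and PolII in Kap1 KD cells (right) by region width in 500-bp bins, with 95% Wilson intervals; blue, KAP1-free regions; orange, KAP1 regions. For H3K4me1 the KAP1-free share rose from 13.1% to 37.3% over the bins and was above the KAP1 share in each bin.

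For H3K27ac the difference missed the threshold over all regions and changed direction with the kind of sequence, in part through chromosome X. It overlapped 325 KAP1-free regions (4.32%, 3.89% to 4.81%) and 103 KAP1 regions (5.03%, 4.17% to 6.07%), against 2.64% of all H3K9me3 regions, with an odds ratio of 0.85 (0.68 to 1.07, adjusted p = 0.213, Fisher's exact test). Among single-copy regions the shares were 1.96% (70 of 3571) and 6.80% (87 of 1279), with an odds ratio of 0.27 (0.20 to 0.38). Among low-copy regions they were 7.32% (237 of 3236) and 2.17% (11 of 506), with an odds ratio of 3.56 (1.93 to 6.56). Without chromosome X the low-copy counts were 96 of 2815 and 9 of 478, and the odds ratio was 1.84 (0.92 to 3.67, p = 0.0902, Fisher's exact test). Over all H3K9me3 regions, chromosome X included, H3K27ac overlapped 1.89% of the single-copy and 4.82% of the low-copy ones. Of the 325 KAP1-free regions with H3K27ac, 145 were on chromosome X, and without that chromosome the odds ratio over all regions was 0.495 (p = 1.1e-07, Fisher's exact test). Without chromosome 15 it was 1.03.

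The chromosome X regions with H3K27ac lay mostly in few places. In chrX:3000001-4000000, 36 of the 49 KAP1-free regions overlapped H3K27ac, and in each of chrX:30000001-31000000 and chrX:31000001-32000000 the count was 33, of 54 and 53 regions. The genes in these windows are mostly predicted genes with Gm names, among them Gm14346, Gm3701 and Gm2863, with Gmcl1l in the middle one. All 66 of the regions with H3K27ac in the latter 2 windows were low-copy. For H3K4me1 the fullest window was a single-copy one, chr15:95000001-96000000, where 59 of 73 regions overlapped the mark around Nell2, Dbx2 and Ano6. Of the KAP1-free regions with H3K27ac, 308 of 325 (94.8%) also had H3K4me1, against 1537 of 1749 (87.9%) over all H3K9me3 regions. A further 1020 had H3K4me1 alone and 6174 (82.1%) had neither, against 90.1% of all H3K9me3 regions with neither.

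**Figure D5:**
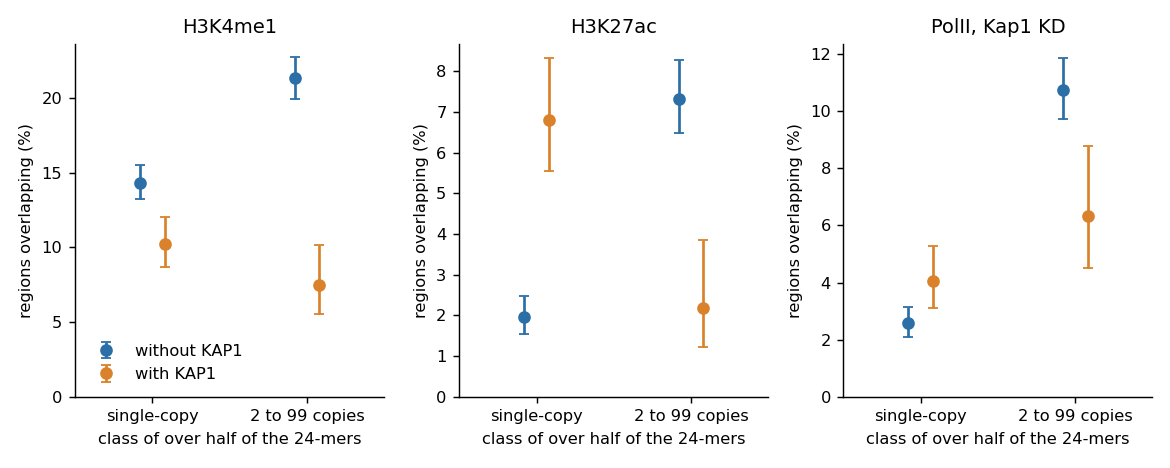
Share of regions overlapping H3K4me1, H3K27ac and PolII in Kap1 KD cells, by the copy class of over 50% of the 24-base runs, with 95% Wilson intervals; blue, KAP1-free regions; orange, KAP1 regions. For H3K27ac and for PolII the KAP1-free regions lay below the KAP1 regions in single-copy sequence (1.96% and 6.80%; 2.58% and 4.07%) and above them in low-copy sequence (7.32% and 2.17%; 10.8% and 6.32%), with the low-copy odds ratio for H3K27ac at 3.56 with and 1.84 without chromosome X.

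PolII in Kap1 KD cells was also found more often in low-copy than in single-copy regions. It overlapped 465 KAP1-free regions (6.18%, 5.66% to 6.75%) and 93 KAP1 regions (4.55%, 3.72% to 5.54%), against 3.03% of all H3K9me3 regions, with an odds ratio of 1.38 (1.10 to 1.74, adjusted p = 0.011, Fisher's exact test). Of these 465 regions, 348 (74.8%) were low-copy. Among single-copy regions the odds ratio was reversed, at 0.624 (0.44 to 0.88, 92 of 3571 against 52 of 1279), and among low-copy regions it was 1.79 (1.23 to 2.60), or 1.93 (1.32 to 2.82) without chromosome X. Within chromosomes and copy classes together it was 0.912 (0.71 to 1.16). Over all H3K9me3 regions, PolII in Kap1 KD cells overlapped 1.55% of the single-copy and 5.84% of the low-copy ones. The fullest windows were chr5:95000001-96000000, with 27 of 97 KAP1-free regions, and chr17:6000001-7000000, with 27 of 79 among the Dynlt1 dynein light chain and Tmem181 copies.

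In control cells PolII overlapped 81 KAP1-free regions (1.08%) and 29 KAP1 regions (1.42%), against 0.584% of all H3K9me3 regions (odds ratio 0.76, 0.49 to 1.16, adjusted p = 0.224, Fisher's exact test). The odds ratio was 0.418 (0.22 to 0.80) in single-copy and 0.793 (0.41 to 1.52) in low-copy regions. Within chromosomes and copy classes together it was 0.590 (0.37 to 0.93), and 10 of 13 alternatives kept direction and side of the threshold. Over the whole genome, PolII regions numbered 12862 in Kap1 KD and 5015 in control cells, a ratio of 2.56. In KAP1-free regions the count was 5.74 times as high, with 432 regions in the Kap1 KD list only, 48 in the control list only and 33 in both. In KAP1 regions it was 3.21 times as high, with 71, 7 and 22, and over all H3K9me3 regions 5.18 times as high (2005 against 387). The odds of being in the Kap1 KD rather than the control list, among regions in one of them only, had a ratio of 0.89 between the sets (0.39 to 2.04, p = 1, two-sided Fisher's exact test). With 1 library per condition, a difference between the libraries and an effect of the knockdown cannot be told apart.

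PolIII met few of these regions. In control cells it overlapped 120 KAP1-free regions (1.60%) and 32 KAP1 regions (1.56%), against 1.07% of all H3K9me3 regions, with an odds ratio of 1.02 (0.69 to 1.51, adjusted p = 1, Fisher's exact test). Within chromosomes this became 1.77 (1.18 to 2.65). The fullest window, chr3:93000001-94000000, had 13 of its 40 KAP1-free regions in the list, all low-copy, in a stretch with filaggrin (Flg) and Tdpoz genes. In Kap1 KD cells the numbers were 39 (0.519%) and 3 (0.147%), against 0.245% of all H3K9me3 regions, with an odds ratio of 3.55 (1.10 to 11.5, adjusted p = 0.0402, Fisher's exact test). That ratio rests on 3 KAP1 regions and stayed past the threshold in 6 of 12 alternatives. Its interval included 1 at widths of 1500 to under 3000 bp (2.61, 0.60 to 11.4), with KAP1 peaks above the median score (3.90), within chromosomes (3.05, 0.97 to 9.61), within chromosomes and copy classes together (2.60, 0.83 to 8.17), and in single-copy and low-copy regions taken alone. The Kap1 KD PolIII list was short, 431 regions against 2772 in control cells.

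KAP1-free regions lay at gene starts less often than KAP1 regions. The centre was within 1 kb of a TSS in 304 KAP1-free regions (4.04%, 3.62% to 4.51%) and 229 KAP1 regions (11.2%, 9.90% to 12.6%), against 3.32% of all H3K9me3 regions. The odds ratio was 0.33 (0.28 to 0.40, adjusted p = 8.59e-30, Fisher's exact test). Among single-copy regions the shares were 4.98% (178 of 3571) and 17.0% (218 of 1279). Among low-copy regions the order was reversed, at 3.86% (125 of 3236) against 1.78% (9 of 506). Over all H3K9me3 regions the TSS share was 6.26% in single-copy and 3.59% in low-copy ones. By their centres, 60.6% of KAP1-free regions were intergenic, 26.3% lay in introns and 3.32% in exons of protein-coding genes away from a TSS, and 5.83% in genes of other types. The corresponding shares of KAP1 regions were 57.4%, 20.8%, 6.65% and 3.96%.

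Of the 258 KAP1-free regions that covered a TSS itself, 46 overlapped H3K4me1 (17.8%), 17 H3K27ac (6.59%), 3 PolII in control cells (1.16%) and 18 PolII in Kap1 KD cells (6.98%). Over all KAP1-free regions the shares were 17.7%, 4.32%, 1.08% and 6.18%. The 5 widest were at Gm13247 (2 regions, chr4:145679267-145683164 and chr4:145695162-145699016), Slc38a4 (chr15:96883406-96887212), Gm4340 (chr10:103631062-103634860) and BC049715 (chr6:136787670-136791421). Both Gm13247 regions and the Gm4340 region overlapped H3K4me1. The region at Slc38a4, which encodes an amino acid transporter and is imprinted in mouse, overlapped none of the active marks or polymerases, was single-copy and had its nearest KAP1 peak 157 kb away. None of 9 genes named by the study (Actg1, Tbp, Junb, Ier5, Ier2, Egr3, Egr2, Hspa1b and Hspa1a) held a KAP1-free region, where 5.29% of all 22380 protein-coding genes did, and Hspa1a and Hspa1b each overlapped 1 KAP1 region.

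A protein-coding gene body was overlapped by 2559 KAP1-free regions (34.0%) and 798 KAP1 regions (39.0%), against 27.9% of all H3K9me3 regions, with an odds ratio of 0.81 (0.73 to 0.89, adjusted p = 9.79e-05, Fisher's exact test). Within chromosomes and copy classes together the ratio was 1.03 (0.92 to 1.15). A total of 1183 genes held a KAP1-free region and 748 a KAP1 region, of which 197 held both. Among the former, 798 held 1 region and 37 held 10 or more.

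Of the 10 genes with the most KAP1-free regions, the 7 on chromosomes 5 and 15 were long and held mostly single-copy ones. Sdk1, which encodes an immunoglobulin superfamily adhesion molecule, held 95 in 974 kb (chr5:141717444-142691540), all single-copy, with none of the KAP1 regions and no overlap with H3K4me1 or H3K27ac. Fry, encoding a microtubule-binding protein, held 48 in 379 kb and Mtus2, encoding a microtubule-associated protein, held 45 in 359 kb, both on chromosome 5, with 5 regions of each overlapping H3K4me1. On chromosome 15 stood Pdzrn4 with 38, Nell2 with 35, Slc2a13 with 26 and Adamts20 with 23. They encode a PDZ and RING finger protein, a secreted neural glycoprotein, a myo-inositol transporter and a secreted metalloprotease. In Nell2, 18 of the 35 overlapped H3K4me1, and in Adamts20 9 of the 23, although none overlapped H3K27ac.

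The remaining 3 of the 10 genes were Gm2792, Gm13242 and Fgfr2. Gm2792 on chromosome 17 held 30, all low-copy, of which 12 overlapped PolII in Kap1 KD cells and 2 in control cells. Gm13242 on chromosome 4 held 23, of which 21 were low-copy, 7 overlapped H3K4me1 and 4 overlapped PolII in Kap1 KD cells. Fgfr2, a fibroblast growth factor receptor gene, held 29, of which 27 were single-copy, but its annotated span here is 3009 kb and covers neighbouring genes. Per length, among genes overlapped by at least 3, the densest were Gsdmcl1 (3 overlapping its 3.63 kb), Gm454, Gm7347, Gm16387 and Rbak. The last of these encodes a KRAB zinc finger protein. The regions at Gsdmcl1 were 7.20 kb wide together and those at Gm454 5.34 kb, for a gene of 3.7 kb, so both sets reached beyond the gene.

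Genes of the zinc finger family, recognised by their symbols, were overlapped by 146 KAP1-free regions (1.94%) and 54 KAP1 regions (2.64%), against 0.919% of all H3K9me3 regions. The odds ratio was 0.73 (0.53 to 1.002, adjusted p = 0.0827, Fisher's exact test). With only the KAP1-free regions that had no KAP1 peak within 5 kb it was 0.65 (0.47 to 0.90). The 146 lay in 108 of 441 such genes (24.5%), where 5.29% of all protein-coding genes held a KAP1-free region. Many zinc finger genes still had a Gm name in this annotation. With current symbols the numbers were 219 (2.91%) and 58 (2.83%), against 1.44% of all H3K9me3 regions, with an odds ratio of 1.03. Along the genes, with 0 at the start and 1 at the end, the centres had a median position of 0.70 in KAP1-free regions and 0.82 in KAP1 regions. Of 141 centres of KAP1-free regions, 54 (38.3%, 30.7% to 46.5%) lay beyond 0.8 and 14 before 0.2. For KAP1 regions the counts were 27 (54.0%, 40.4% to 67.0%) and 2 of 50.

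Other gene families held few KAP1-free regions. Vomeronasal receptor genes held 35 (0.465%, all low-copy) and 1 KAP1 region, at 0.439% of all H3K9me3 regions. Mup genes held 19 (0.253%), of which 17 were low-copy, and 2 KAP1 regions, at 0.254% of all H3K9me3 regions, so both families were near the share of the whole list. Solute carrier genes held 60 (0.798%, against 0.569% of all H3K9me3 regions), potassium channel genes 41 (0.545% against 0.391%) and cadherin genes 28 (0.372% against 0.300%). Of these regions 1 was low-copy, and the same families held 15, 10 and 6 KAP1 regions. Olfactory receptor genes held 10 (0.133%, against 0.128% of all H3K9me3 regions) in 8 of 1113 genes (0.719%). The replication-dependent histone, serpin, immunoglobulin and killer lectin receptor families held none. All H3K9me3 regions together had 2, 13, 0 and 22 in these families, and the KAP1 regions 0, 1, 0 and 4. The remaining 7 families held between 1 and 10 each, from 0.0133% for UDP glucuronosyltransferase genes (0.0272% of all H3K9me3 regions) to 0.133% for collagen genes (0.103%) and glutamate receptor genes (0.181%). Only the zinc finger share was tested.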

How the data were processed

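Reads had been mapped to mm9 with Bowtie and regions called by the authors, with ChIP-Part for histone marks and with MACS against total input for KAP1 and PolII. The PolIII caller and all settings are not given in the sources used here. The deposited lists hold positions, and the score of each KAP1 peak is the authors' own. Lists were read as deposited, with an overlap of 1 bp or more. Shares of KAP1-free and KAP1 regions were compared by two-sided Fisher's exact test (scipy 1.17.1) with Benjamini-Hochberg adjustment over 9 comparisons, odds ratios with 95% intervals, and Mantel-Haenszel odds ratios (statsmodels 0.14.6) for strata. Genes came from GENCODE M1 on NCBIM37, which is mm9, and current symbols from RefSeq for names only. Interval code was tested on simulated data and against bedtools 2.31.1.

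The members and gene families were chosen with earlier results of these data known. Named genes are the 10 with the most KAP1-free regions, the 5 densest with at least 3, the 5 widest regions over a TSS, the 5 fullest windows of 1 Mb and 9 genes named by the study; other windows and the copy-class, chromosome-stratified and current-symbol comparisons were chosen after the values were seen. The 5 input libraries were not used here.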

Additional observations from a re-analysis of the deposited data

How the results depend on the processing

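All values here are odds ratios of KAP1-free against KAP1 regions. Over 118 alternatives to the 9 comparisons, 79 kept direction and side of the threshold. H3K4me1 kept both in all 13 (1.43 to 4.34) and the TSS share in 12 of 14. The number of KAP1-free regions stayed between 6673 and 8067. H3K27ac changed most: 1.156 at widths of 1500 to under 3000 bp, 0.466 after merging, 1.033 without chromosome 15, 0.495 without chromosome X, 0.5991 with at least 0.5 covered, 0.6882 in chromosome strata, 0.2739 in single-copy and 3.556 in low-copy regions (1.84 without chromosome X), and 0.598 in strata of both. Control PolII passed the threshold with KAP1 peaks above the median score (0.5933), in single-copy regions (0.4181) and in strata of both (0.5898). Kap1 KD PolII did not after merging (1.24), with KAP1 peaks above the median (1.287) or with at least 0.5 covered (1.25), and reversed in single-copy regions (0.624) and in strata of both (0.9117).

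Control PolIII was 0.9672 without KAP1 within 5 kb, 0.9556 with KAP1 peaks above the median, 1.768 in chromosome strata, 0.584 in single-copy and 0.9767 in low-copy regions, and 1.595 in strata of both. Kap1 KD PolIII missed the threshold at 2.609 for widths of 1500 to under 3000 bp, 3.9 with KAP1 peaks above the median, 5.752 in single-copy and 2.667 in low-copy regions (2.898 without chromosome X), and 2.602 in strata of both; it gave no value with at least 0.5 covered. In low-copy regions the TSS ratio was 2.219 and the gene body ratio 1.282 (2.159 and 1.373 without chromosome X), the latter 1.03 in strata of both. The zinc finger ratio was 0.6526 without KAP1 within 5 kb, 1.019 in low-copy regions without chromosome X, 1.104 in strata of both and 1.028 with current symbols. The causes were not tested. Copy-class, chromosome-strata, chromosome X and current-symbol alternatives were chosen after seeing the data. Intervals cover counting over clustered regions from 1 library per antibody; depth is unknown. No paired analysis was possible because each antibody and condition has 1 library.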
